A study of Mus musculus with 8 samples.

Results

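The 44 genes that encode collagen alpha chains were followed in whole tibialis anterior muscle after cryoinjury, in aged mice given recombinant interleukin 33 (rIL-33) or PBS. They were taken as every gene whose symbol is Col, a number, a and a number, which gave 44 of the 19752 genes with a value. RefSeq lists 44 mouse genes of that pattern in GRCm38.p6, and all 44 had a value under the same symbol. By the type number, 11 encode chains of fibrillar collagens, 6 chains of the basement membrane network, 6 chains of beaded filaments, 9 fibril-associated chains and 12 other types.

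All muscles came from male mice, C57BL/6 per the design text, aged 99 weeks by the labels or 22 months by the design text, and all were injured by holding a metal probe chilled in liquid nitrogen against the muscle for 8 s. The rIL-33 group (4 arrays) had 2 µg of the cytokine injected into the peritoneal cavity on the day before and again on the day after the injury, and the other group (4 arrays) carries the treatment label PBS. Muscles were taken 8 days after injury and each RNA was hybridised to 1 Affymetrix Mouse Gene 1.0 ST array, so uninjured muscle was not part of the comparison. For genetic background, replicates 1 and 2 of both treatments are labelled C57BL/6, whereas 3 and 4 are labelled WT. The difference between these labels was left unexplained in the sources used here. Whether the 4 arrays of a treatment stand for 4 mice is not stated, and the p-values measure only how these samples spread, which may be technical.

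Collagens are the main proteins of the extracellular matrix. Each molecule is a triple helix of 3 alpha chains, built from repeats of glycine followed by a pair of other residues, and the chains are modified, folded, secreted, trimmed and crosslinked before they form fibrils or networks. In skeletal muscle, fibroblasts and fibro-adipogenic progenitors make most of the interstitial collagen. Endothelial cells and muscle cells also contribute to the basement membrane. After an injury the matrix is rebuilt while new fibres form, and collagen that persists is known as fibrosis. Interleukin 33 is a cytokine released by damaged stromal cells, and its receptor ST2 is found on regulatory T cells of muscle.

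Values are log2 intensities of 1 probe set per gene, and differences are rIL-33 minus PBS. Probe sets differ in how strongly they bind, so the level of a gene here is the brightness of its probe set, and an order of levels is not an order of RNA amounts. In bulk muscle, fewer cells of a type and less RNA per cell cannot be told apart. All 44 collagen genes lay above the filter for dim genes, a mean log2 intensity of 6.65, and all were tested among 14814 genes. The deposited arrays were alike in their median intensity, between 222.6 and 232.2. Their lower quartiles differed more, from 88.3 on PBS replicate 1 to 107.3 on PBS replicate 3. Muscle fibre genes were bright on all arrays, with Acta1, the skeletal muscle actin, at 13.91 ± 0.09 (SD, n = 4) with PBS and 13.89 ± 0.03 (SD, n = 4) with rIL-33.

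Most collagen genes were lower with rIL-33, with larger differences in those with a bright probe set (below). Of the 44, 41 were lower and 3 higher (Col6a5, Col4a6 and Col19a1), where 54.3% of all genes with a value, and 52% of those tested, were lower. The median log2 difference over the 44 was -0.10, beside -0.01 over all genes. Col4a4, Col20a1 and Col24a1 turned above 0 under quantile and cyclic loess normalization, and 16 genes close to 0 turned to the other side without PBS replicate 3, which left a median of -0.04. No collagen gene passed the threshold of 0.05 after Benjamini-Hochberg adjustment over all genes in limma (adjusted p between 0.489 and 0.988), and 0.00675% of all genes, 1 of 14814, did. At an unadjusted limma p under 0.05, 14 collagen genes (31.8%) were lower and 0 higher, where 5.24% of all genes were lower and 4.39% higher. The 14 were Col1a1, Col1a2, Col3a1, Col5a1, Col5a3, Col4a2, Col6a1, Col6a2, Col6a3, Col12a1, Col14a1, Col8a1, Col15a1 and Col18a1. In 5 of them (11.4% of the family), Col3a1, Col6a1, Col6a2, Col14a1 and Col18a1, all 4 rIL-33 arrays lay below all 4 PBS arrays, which was so for 2.13% of all genes. In 0 of the 44 were all rIL-33 arrays above all PBS arrays, beside 2.44% of all genes. The count of 14 rested in part on single arrays. It was 8 without rIL-33 replicate 1, 8 without rIL-33 replicate 3 and 9 without PBS replicate 1, and the shares of all genes that were lower in these fits were 2.48%, 2.81% and 3.76%. The count of 5 without overlap was 11 without PBS replicate 2 and 9 without rIL-33 replicate 2, beside 5.63% and 4.66% of all genes.

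**Figure D1:**
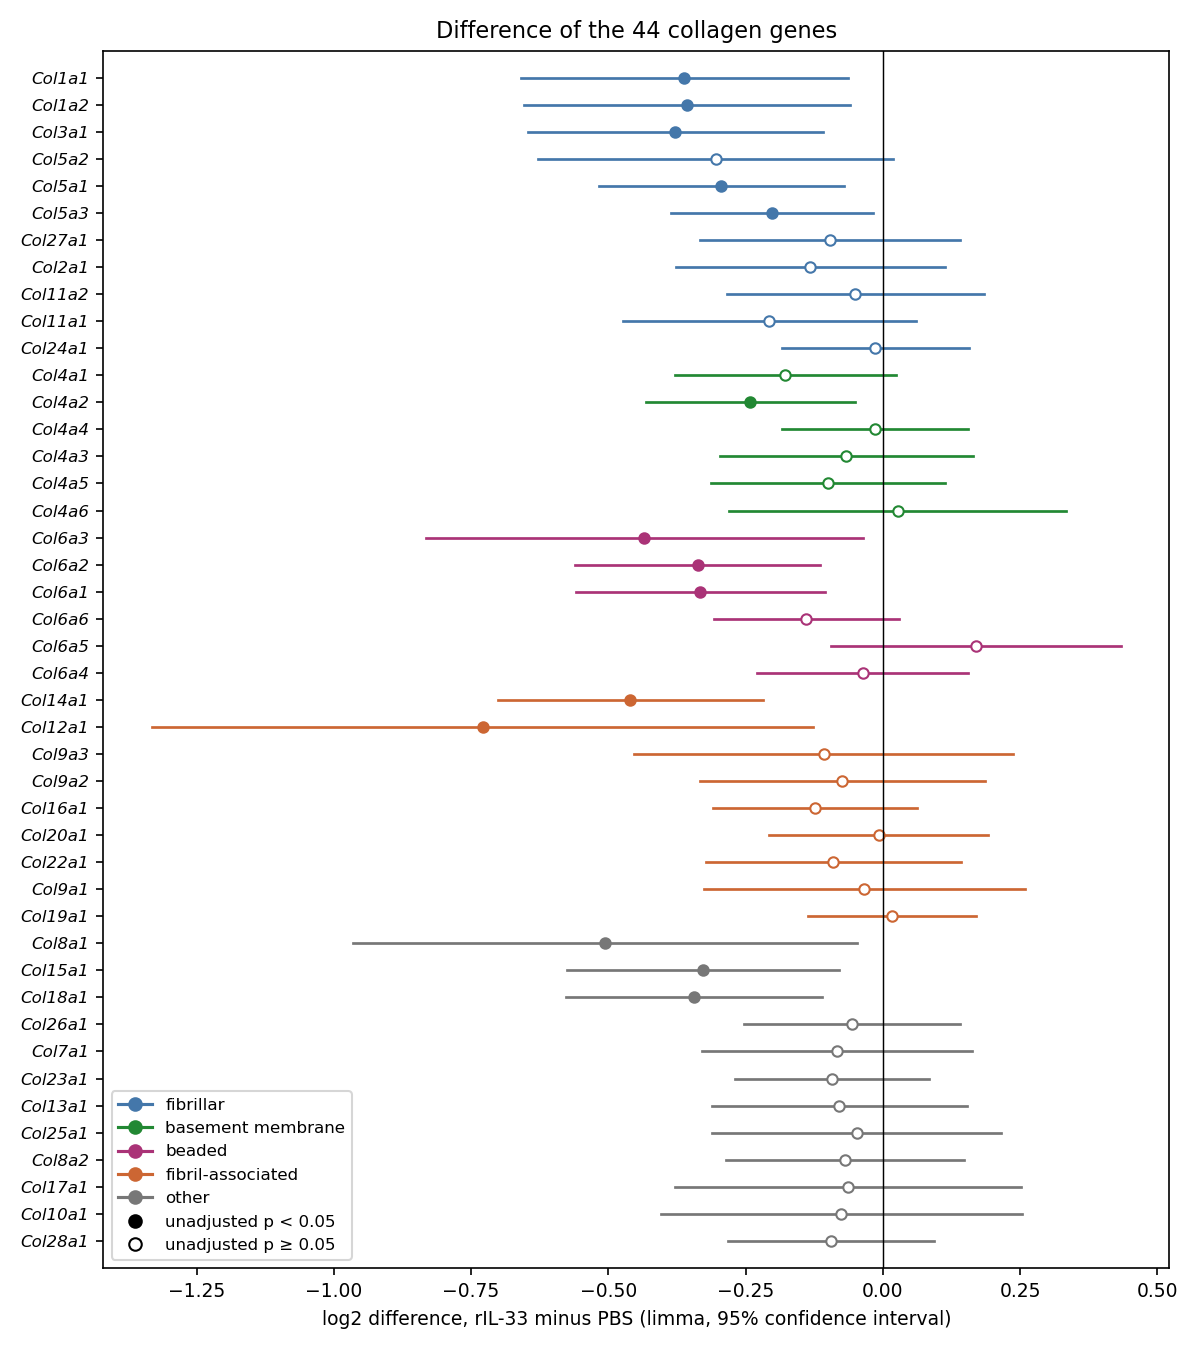
Log2 difference (rIL-33 minus PBS, x axis) of each of the 44 collagen genes (y axis), grouped by collagen class and ordered by mean level within a class, with the 95% confidence interval of the limma fit on 4 arrays per group. Filled points have an unadjusted p under 0.05, and all 14 of them lie below 0.

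The differences were larger in collagen genes with a bright probe set. Of the 14 genes with a mean log2 intensity of at least 9, all 14 were lower, with a median of -0.35, 12 (85.7%) had an unadjusted limma p under 0.05 and 4 (28.6%) had no overlap. Among all genes at that level, 6.94% were lower at that p, 2.25% were lower without overlap and 40.4% lay below 0. Of the 30 collagen genes under 9, 27 were lower, with a median of -0.07. Of all genes with a value under that level, 59.3% were lower. At an unadjusted limma p under 0.05, 2 (6.67%) of the 30 were lower, beside 4.32% of all tested genes under that level. Of the 30, Col18a1 alone had no overlap, beside 2.07% of those genes. Across the 44 genes, level and difference had a Spearman correlation of -0.84, and across all genes tested it was 0.19. This is a description across genes, which share the same 8 arrays, and the split at 9 was chosen after the values were seen.

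**Figure D2:**
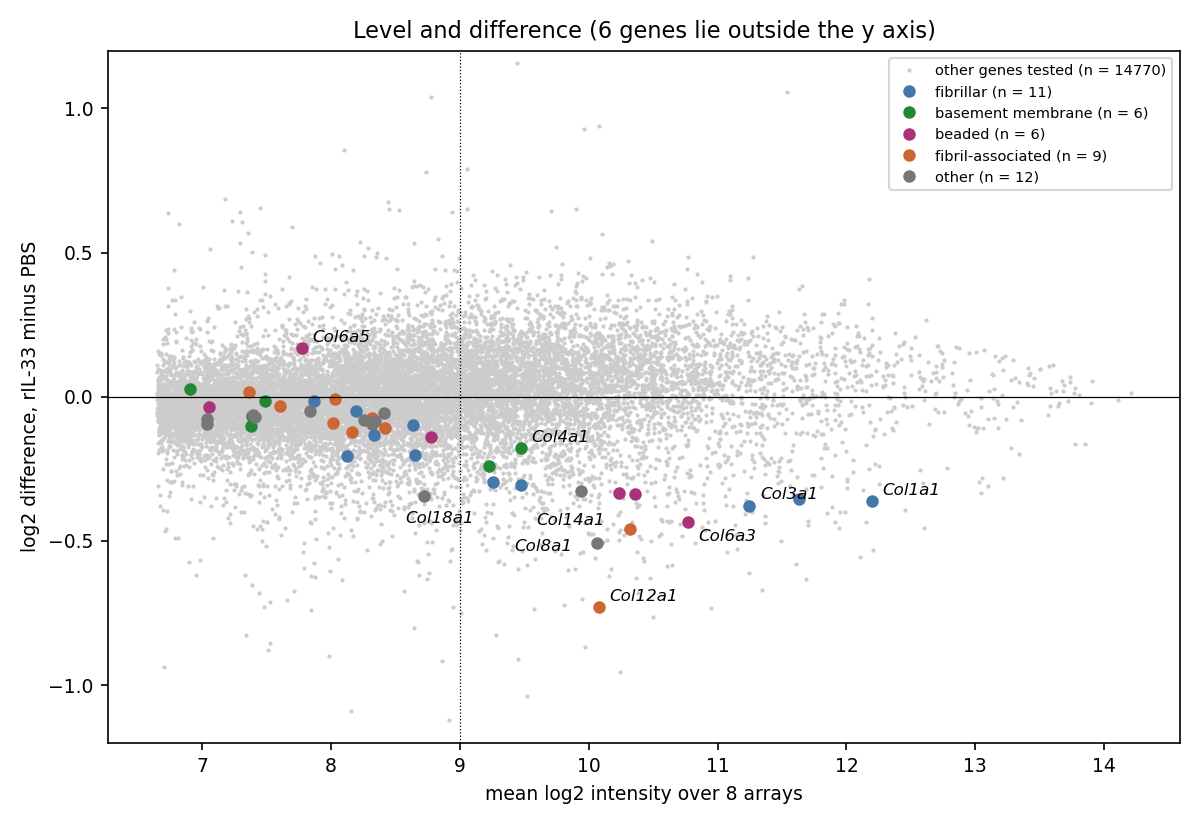
Mean log2 intensity over 8 arrays (x axis) against the log2 difference, rIL-33 minus PBS (y axis), for the 44 collagen genes as large points coloured by class (dark grey for other types) and for the 14770 other genes tested as small pale points (6 genes lie outside the y axis). The dotted line marks a level of 9. The 14 collagen genes to its right all lie below 0, and most of those to its left lie close to 0.

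The arrays within a group were unequal. Among the 14 genes of level 9 or more, rIL-33 replicate 3 was the lowest of all 8 arrays in 13, and rIL-33 replicate 1 was the lowest in the other, Col14a1. Both of these arrays lay below every PBS array in all 14 genes. The other rIL-33 arrays were closer to PBS: replicate 2 was at or above the lowest PBS array in 10 of the 14 genes and replicate 4 in 7. The mean of these 14 genes, each centred on its own average over the arrays, was -0.28, 0.03, -0.50 and 0.01 in rIL-33 replicates 1 to 4. It was 0.28, 0.05, 0.19 and 0.23 in PBS replicates 1 to 4, so that rIL-33 replicates 2 and 4 stood next to PBS replicate 2.

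**Figure D3:**
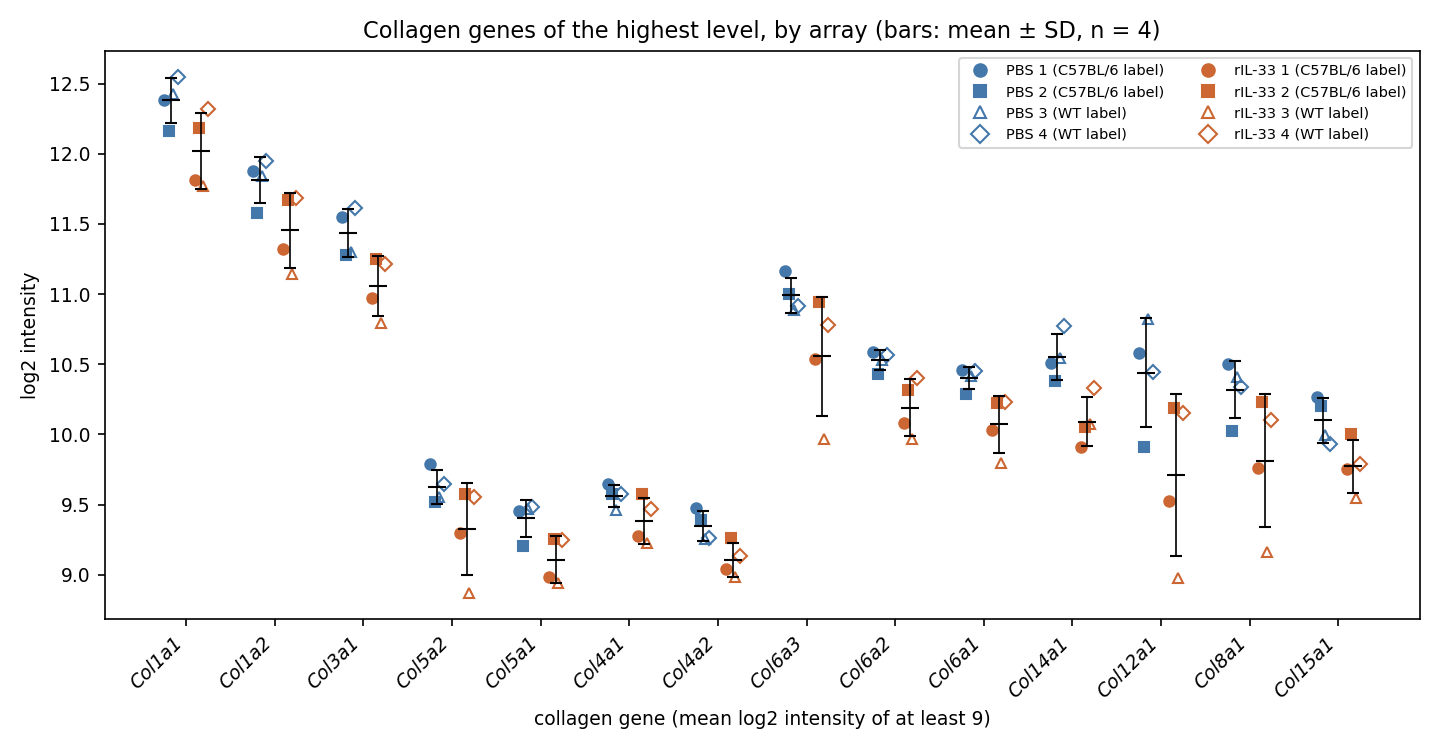
Log2 intensity (y axis) on each of the 8 arrays for the 14 collagen genes with a mean log2 intensity of at least 9 (x axis), with PBS in blue and rIL-33 in orange, filled symbols for the C57BL/6 label and open ones for WT, and bars for the mean ± SD of 4 arrays. The open orange triangle, rIL-33 replicate 3, is the lowest point in 13 of the 14 genes.

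Fibrillar collagens form the ropes of the interstitial matrix. Type I is the main fibril protein of tendon, bone and scar, type III is its partner in elastic tissues and granulation tissue, and type V starts fibrils and limits their width. All 11 fibrillar chain genes were lower with rIL-33, by a median of -0.21, and 5 had an unadjusted limma p under 0.05 (over all genes tested 52% were lower and 5.24% were so at that p). Col1a1, the alpha 1 chain of type I, stood at 12.38, 12.16, 12.43 and 12.55 in PBS replicates 1 to 4 and at 11.81, 12.18, 11.77 and 12.32 in rIL-33 replicates 1 to 4. The groups overlapped, since rIL-33 replicates 2 and 4 lay above PBS replicate 2. The log2 difference was -0.36 (SE 0.13, 95% confidence interval -0.66 to -0.06), or 22.2% less intensity. Col1a2, which encodes the other chain of the type I molecule, was 11.88, 11.58, 11.84 and 11.95 with PBS and 11.32, 11.67, 11.14 and 11.68 with rIL-33. Again rIL-33 replicates 2 and 4 lay above PBS replicate 2, and the difference was again -0.36 (SE 0.13). The log2 ratio of Col1a1 to Col1a2 within an array had an SD of 0.04 with PBS and 0.08 with rIL-33, and its difference between the groups was -0.0056.

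Col3a1, the only chain of type III collagen, was 11.55, 11.28, 11.30 and 11.61 with PBS and 10.97, 11.25, 10.79 and 11.22 with rIL-33. The groups did not overlap, although rIL-33 replicate 2 and PBS replicate 2 came close. Its difference was -0.38 (SE 0.12, limma adjusted p = 0.489), or 23% less intensity. Of the type V chains, Col5a1 was 9.46, 9.20, 9.47 and 9.48 with PBS and 8.99, 9.25, 8.94 and 9.25 with rIL-33. PBS replicate 2 was the one PBS array within the rIL-33 range, and the difference was -0.29 (SE 0.10). Col5a2 was 9.79, 9.52, 9.56 and 9.65 with PBS and 9.30, 9.58, 8.87 and 9.55 with rIL-33, with overlapping groups. Its difference of -0.30 (SE 0.15) was -0.15 without rIL-33 replicate 3. Col5a3, the chain of type V known from muscle and fat, differed by -0.20 (SE 0.08). Col5a2 and Col3a1 are neighbours on their chromosome.

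For the cartilage fibril chains and the long minor fibrillar chains, the 95% confidence intervals included 0. Col2a1, the chain of type II collagen, differed by -0.13 (SE 0.11), and the type XI chains Col11a1 and Col11a2 by -0.21 (SE 0.12) and -0.05 (SE 0.11). Col27a1 and Col24a1 differed by -0.10 (SE 0.11) and -0.01 (SE 0.08). The widest interval of the 5 ran from -0.47 to 0.06 (Col11a1).

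Promoter sequence is shown for Col1a2 and Col3a1, both lowest on rIL-33 replicate 3, to set the genes side by side. RefSeq windows (GRCm38.p6) of 250 bases before an annotated start were available for 35 of the 44 collagen genes, with 38 starts among them. They were searched on both strands for 3 short motifs, which capitals mark below. The letters CCAAT are known from sites of the factor NF-Y. The letters TATAAA are known from the site where the general factor TBP binds. The letters GGGCGG are known from Sp1 sites. Col1a2 lies on the plus strand at chr6:4505368-4505617 and Col3a1 on the plus strand at chr1:45311288-45311537. Both are printed 5′ to 3′ on the gene's strand, ending at the base before the start.
Col1a2: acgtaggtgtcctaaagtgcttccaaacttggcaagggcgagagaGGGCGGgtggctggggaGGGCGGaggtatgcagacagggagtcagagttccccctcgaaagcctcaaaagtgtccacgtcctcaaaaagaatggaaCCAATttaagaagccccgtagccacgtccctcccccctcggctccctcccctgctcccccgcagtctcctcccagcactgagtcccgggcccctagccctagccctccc
Col3a1: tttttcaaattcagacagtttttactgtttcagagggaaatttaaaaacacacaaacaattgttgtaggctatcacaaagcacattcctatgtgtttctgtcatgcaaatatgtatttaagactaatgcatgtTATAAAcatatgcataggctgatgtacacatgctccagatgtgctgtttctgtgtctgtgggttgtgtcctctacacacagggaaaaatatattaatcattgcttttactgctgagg

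The Col1a2 window held 1 CCAAT, which began 109 bases before the start, and 2 GGGCGG, whereas the Col3a1 window held 1 TATAAA, 117 bases before the start, and no match to the other letters. Their shares of G and C were 62.0% and 35.2%. Over the 38 collagen windows, CCAAT was found in 34.2%, beside 33.8% of 32851 mouse windows of this length, and TATAAA in 13.2%, beside 12.4%. GGGCGG was found in 57.9%, beside 32.7%, and the median share of G and C was 59.0% in the collagen windows and 52.4% in all windows. Of the 14 genes at an unadjusted p under 0.05, 11 had a window, and 4 of their 13 windows held CCAAT, 1 TATAAA and 8 GGGCGG. In 2 windows a pair of GGGCGG matches overlapped. A match is a description of the letters and not a binding site.

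Beaded filaments of type VI collagen surround muscle fibres and link the basement membrane to the interstitial matrix, and loss of their chains causes muscular dystrophy in humans. The 3 classical chain genes were lower together. Col6a1 was 10.46, 10.29, 10.42 and 10.45 with PBS and 10.03, 10.23, 9.80 and 10.23 with rIL-33, without overlap, and differed by -0.33 (SE 0.10). Col6a2 was 10.59, 10.43, 10.53 and 10.57 with PBS and 10.08, 10.31, 9.97 and 10.40 with rIL-33, again without overlap, and differed by -0.34 (SE 0.10). These neighbouring genes kept a log2 ratio whose SD within PBS was 0.01 and within rIL-33 was 0.06, and the ratio differed by 0.0052 between the groups. Col6a3, the longest of the 3 chains, was 11.16, 10.997, 10.88 and 10.91 with PBS and 10.53, 10.94, 9.97 and 10.78 with rIL-33. Its groups overlapped through rIL-33 replicate 2, and its difference of -0.43 (SE 0.18) was -0.24 without rIL-33 replicate 3. The limma adjusted p of the 3 genes lay between 0.489 and 0.498.

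The other beaded filament chains, Col6a4, Col6a5 and Col6a6, lie side by side on one chromosome and can take the place of Col6a3 in the molecule. Col6a6 was 8.80, 8.92, 8.81 and 8.86 with PBS and 8.61, 8.63, 8.85 and 8.75 with rIL-33, with overlapping groups, and differed by -0.14 (SE 0.08). Col6a4 differed by -0.04 (SE 0.09).

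Col6a5 was 1 of the 3 collagen genes above 0. It was 7.44, 7.58, 7.97 and 7.74 with PBS and 7.89, 7.65, 8.00 and 7.88 with rIL-33 on the probe set used (10596409), a difference of 0.17 (SE 0.12), which was the largest positive one of the 44. A second probe set of Col6a5 (10596403), left out because its mean was lower, gave 6.87, 6.67, 6.53 and 6.80 with PBS and 8.09, 7.08, 7.55 and 7.90 with rIL-33. There even the lowest rIL-33 array lay above the highest PBS array, which was so for 2.64% of 16069 probe sets, and 4.74% were higher at an unadjusted p under 0.05. In a limma fit on all probe sets with 1 gene symbol, added after the values were seen, the difference was 0.94 (SE 0.19, 95% confidence interval 0.52 to 1.36, adjusted p = 0.472), a 1.92-fold intensity. It was the 9th largest positive difference among the 16069 probe sets and the 12th by p, and it did not pass the threshold, which 0.00622% of them did. By label the difference was 0.82 (C57BL/6) and 1.06 (WT), and it lay between 0.79 and 1.13 when any 1 array was left out. The mean with PBS, 6.72, lay just above the filter of this fit, 6.67. The platform annotation gives both probe sets the same gene symbol, and the exons that each one covers were not analysed here. Col6a6, the one other collagen gene with a second probe set, differed by -0.15 (SE 0.11) on it.

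**Figure D4:**
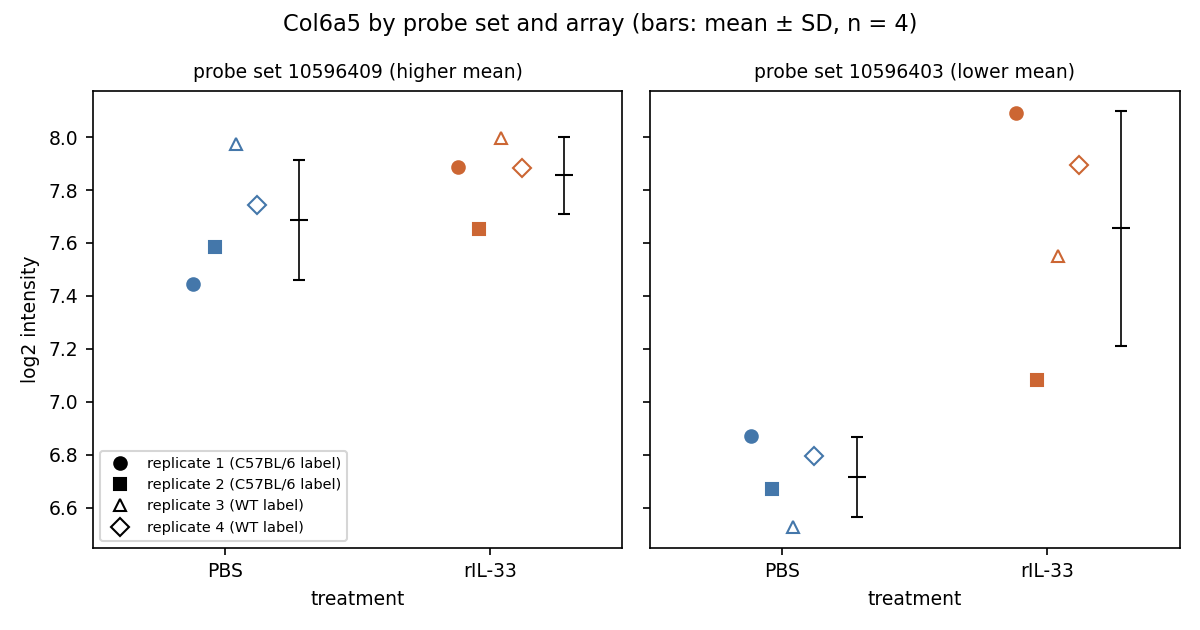
Log2 intensity (y axis) of both Col6a5 probe sets on each array by treatment (x axis), with filled symbols for the C57BL/6 label, open ones for WT and bars for the mean ± SD of 4 arrays. On probe set 10596403 the rIL-33 arrays (7.08 to 8.09) lie above all PBS arrays (6.53 to 6.87), and on probe set 10596409 the groups overlap.

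Basement membranes, the sheets around muscle fibres and vessels, are built on a network of type IV collagen, whose common form holds the chains of Col4a1 and Col4a2. Both genes were lower with rIL-33, and the other 4 chain genes lay close to 0. Col4a1 was 9.65, 9.57, 9.46 and 9.57 with PBS and 9.28, 9.57, 9.23 and 9.47 with rIL-33, with overlap, and differed by -0.18 (SE 0.09, 95% confidence interval -0.38 to 0.02). Col4a2 was 9.48, 9.39, 9.26 and 9.26 with PBS and 9.04, 9.26, 8.99 and 9.14 with rIL-33. Its groups met at rIL-33 replicate 2, and its difference was -0.24 (SE 0.09, limma adjusted p = 0.489). The genes lie head to head on chromosome 8, with RefSeq starts 21 bases apart on opposite strands, and their log2 ratio differed by 0.06 between the groups, with an SD of 0.06 with PBS and 0.05 with rIL-33.

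The remaining type IV chains belong to networks of kidney, lung and other specialised basement membranes. Col4a3 was 7.19, 7.42, 7.56 and 7.49 with PBS and 7.22, 7.22, 7.51 and 7.45 with rIL-33, and differed by -0.07 (SE 0.10). Col4a4, its neighbour, was 7.36, 7.47, 7.65 and 7.49 with PBS and 7.42, 7.50, 7.51 and 7.48 with rIL-33, and differed by -0.01 (SE 0.08). The groups overlapped in both. Col4a5 and Col4a6, neighbours on the X chromosome with starts 1343 bases apart, differed by -0.10 (SE 0.10) and 0.03 (SE 0.14).

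Fibril-associated collagens sit on the surface of fibrils and tie them to other matrix. Their class held the largest difference of the family and also a set of genes close to 0. Col12a1, a chain known from tendon, muscle connective tissue and healing wounds, was 10.58, 9.91, 10.82 and 10.44 with PBS and 9.53, 10.19, 8.98 and 10.15 with rIL-33. The arrays spread widely in both groups and overlapped, PBS replicate 2 lying below rIL-33 replicates 2 and 4. The difference was -0.73 (SE 0.27, 95% confidence interval -1.33 to -0.13, limma adjusted p = 0.489), or 39.7% less intensity. It was -0.48 without rIL-33 replicate 3 and -0.91 without PBS replicate 2. Col14a1, which encodes a related chain made by fibroblasts, was 10.51, 10.38, 10.55 and 10.77 with PBS and 9.91, 10.05, 10.07 and 10.33 with rIL-33. All rIL-33 arrays were lower than all PBS arrays, and the difference of -0.46 (SE 0.11) had the smallest unadjusted limma p of the 44 genes, 0.00163. It was -0.46 within each background label and lay between -0.54 and -0.39 when any 1 array was left out.

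The type IX chains, which coat cartilage fibrils, overlapped between the treatments. Col9a3 was 8.09, 8.36, 8.88 and 8.54 with PBS and 8.17, 8.29, 8.60 and 8.39 with rIL-33, and Col9a2 was 8.12, 8.24, 8.63 and 8.43 with PBS and 8.13, 8.20, 8.43 and 8.38 with rIL-33. In both, the WT-labelled arrays were the higher ones in each group. The differences were -0.11 (SE 0.16) for Col9a3, -0.07 (SE 0.12) for Col9a2 and -0.03 (SE 0.13) for Col9a1. Col16a1, Col20a1, Col22a1 (a chain of the muscle-tendon junction) and Col19a1 differed by between -0.12 and 0.02.

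The other types hold network chains, multiplexins, transmembrane chains and the chain of anchoring fibrils. All 12 genes were lower, by a median of -0.08, and 3, Col8a1, Col15a1 and Col18a1, had an unadjusted limma p under 0.05, beside 5.24% of all genes tested. Col8a1, a network chain of vessel walls and of remodelled tissue, was 10.50, 10.03, 10.41 and 10.34 with PBS and 9.76, 10.23, 9.17 and 10.10 with rIL-33. Groups overlapped, and the difference of -0.51 (SE 0.21) was -0.29 without rIL-33 replicate 3. Its partner chain gene Col8a2 differed by -0.07 (SE 0.10). Col15a1, a multiplexin that anchors basement membranes of muscle and capillaries, was 10.27, 10.20, 9.999 and 9.93 with PBS and 9.75, 10.01, 9.55 and 9.79 with rIL-33. The groups overlapped at rIL-33 replicate 2, and the difference was -0.33 (SE 0.11). Col18a1, the multiplexin whose C-terminal fragment is endostatin, was 8.94, 8.76, 8.95 and 8.93 with PBS and 8.27, 8.76, 8.53 and 8.65 with rIL-33. Its groups did not overlap, but rIL-33 replicate 2 lay below PBS replicate 2 by less than the rounding shown, and the difference was -0.34 (SE 0.11, limma adjusted p = 0.489).

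Col26a1 was 8.35, 8.38, 8.62 and 8.42 with PBS and 8.21, 8.43, 8.43 and 8.48 with rIL-33, and differed by -0.06 (SE 0.09). The transmembrane chain genes Col13a1 (a protein of the neuromuscular junction), Col17a1, Col23a1 and Col25a1 differed by between -0.09 and -0.05. Col7a1, the chain of anchoring fibrils, Col10a1, the chain of growth plate cartilage, and Col28a1 differed by -0.08, -0.08 and -0.09. None of these genes had an unadjusted limma p under 0.05.

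Within the background labels, each with 2 arrays per treatment, the median of the family lay below 0 in both. The median over the 44 genes was -0.07 in the C57BL/6-labelled and -0.16 in the WT-labelled arrays, and 34 genes were lower in both. Over all genes tested 33.6% were lower in both. All 14 genes of level 9 or more were lower within each label, by a median of -0.28 and -0.43. Of all 5200 genes at that level, 1495 were lower in both, and their medians were -0.0027 and 0.061. For the 30 genes under 9 the medians were -0.03 and -0.12, beside -0.0076 and -0.038 over all genes with a value under 9. The largest gaps were those of Col12a1 (-0.39 and -1.07) and Col8a1 (-0.27 and -0.74), in both of which rIL-33 replicate 3, a WT-labelled array, was the lowest. The interaction of treatment and label was tested with limma over all genes. None of the 44 had an interaction p under 0.05 before adjustment (smallest 0.0877), where 3.19% of all genes had, and 0% of all genes passed after adjustment.

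**Figure D5:**
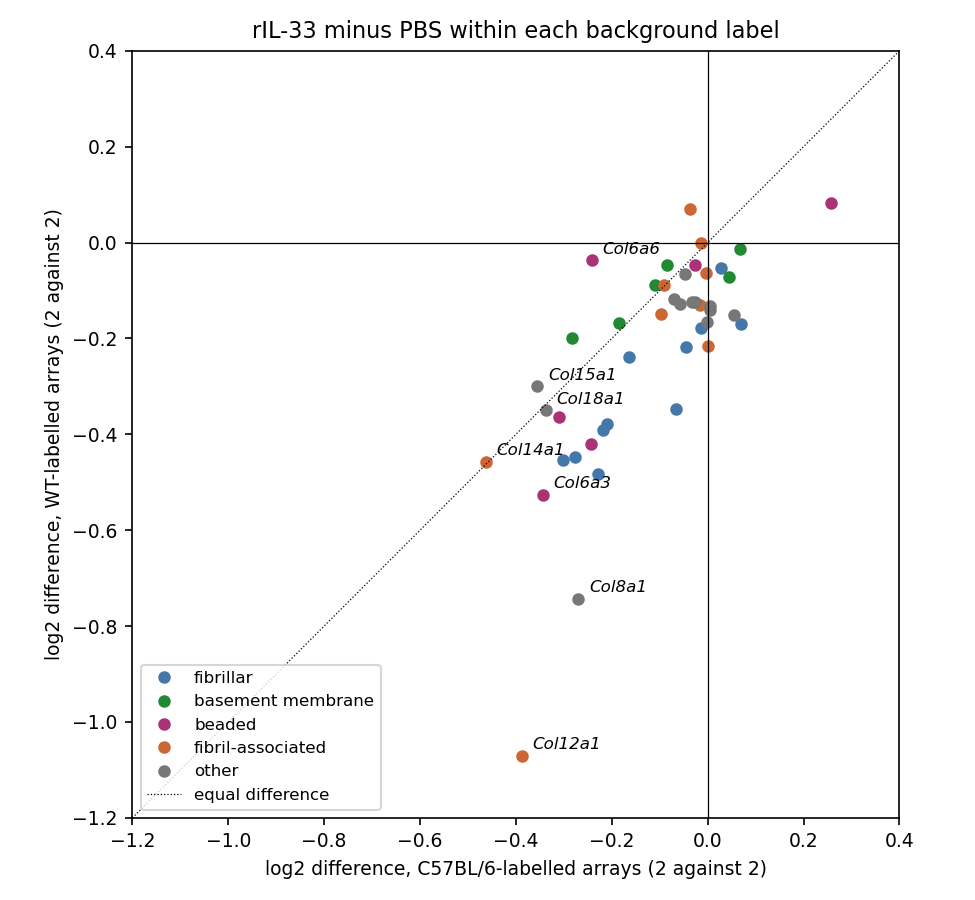
Log2 difference, rIL-33 minus PBS, within the C57BL/6-labelled arrays (x axis) and within the WT-labelled arrays (y axis), 2 arrays against 2 in each, for the 44 collagen genes by class. Of these, 34 are below 0 on both axes, and Col12a1 (-0.39 and -1.07) lies farthest below the dotted line of equal differences.

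The label itself moved with the collagen genes of a level under 9. In a limma fit with treatment and label, 21 of the 44 genes were higher in the WT-labelled arrays at an unadjusted p under 0.05 and 1, Col15a1, was lower, beside 15% and 18% of all genes. After adjustment 4 of the 44 genes passed, Col2a1, Col9a1, Col9a2 and Col9a3, a share near the 9.4% of all genes. They were higher in WT-labelled arrays by between 0.26 and 0.37. Of the 21, 20 had a level under 9, where 30 of the 44 genes lie. The label also moved with level over all genes. At that unadjusted p, 2032 of the 9614 genes tested under 9 were higher in WT-labelled arrays, and 185 of the 5200 at 9 or more. PBS replicate 3 was the highest of the 8 arrays in 24 of the 30 genes under 9, and the lowest was rIL-33 replicate 1 in 15 and PBS replicate 1 in 14. The lower quartile of all intensities was 88.3 to 93.8 on the C57BL/6-labelled and 97.1 to 107.3 on the WT-labelled arrays, highest on PBS replicate 3 and lowest on PBS replicate 1. The part of this array level in the values of these collagen genes was not tested.

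Lists of genes that act on collagen were read against all genes tested, of which 52% were lower and 5.24% were lower and 4.39% higher at an unadjusted p under 0.05. No gene of these lists passed the threshold (limma adjusted p of at least 0.489 in every list). Collagen folding and processing, which covers the prolyl and lysyl hydroxylases, chaperones, procollagen proteinases and lysyl oxidases, had 31 genes with a value of 34. Of these 25 were lower, 11 of them at an unadjusted p under 0.05, and the median was -0.24. P4ha3, a prolyl hydroxylase subunit, differed by -0.57 (SE 0.28) and Pcolce, an enhancer of procollagen cleavage, by -0.48 (SE 0.14). Of 13 collagen receptors 12 were lower, 4 at an unadjusted p under 0.05, with a median of -0.16. The hyaluronan and collagen receptor gene Cd44 differed by -0.40 (SE 0.20) and Mrc2, an endocytic collagen receptor, by -0.33 (SE 0.12).

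All 18 matrix partners that bind collagen were lower, with a median of -0.28, and 10 of the 17 tested were so at an unadjusted p under 0.05, beside 5.24% of all genes tested. The small leucine-rich proteoglycan genes Lum and Aspn differed by -0.76 (SE 0.15) and -0.63 (SE 0.23). Of 21 basement membrane partners 17 were lower, with a median of -0.07 and 5 at an unadjusted p under 0.05. Pxdn, the peroxidase that crosslinks type IV collagen, differed by -0.49 (SE 0.13) and Nid1, the linker of laminin and type IV collagen, by -0.44 (SE 0.11). Of 16 genes of collagen degradation and its inhibitors, 3 were dim and 13 were lower, with a median of -0.21. At an unadjusted p under 0.05, 6 were lower and 1, the inhibitor gene Timp4, was higher, by 0.35 (SE 0.12). The inhibitor gene Timp1 differed by -0.72 (SE 0.30) and the gelatinase gene Mmp9 by -0.64 (SE 0.25), which was -0.15 within the C57BL/6 label and -1.12 within WT. Regulators of collagen genes had a median of -0.05, with 13 of 20 lower and 1 at an unadjusted p under 0.05, a share near that of all genes. Ccn2 (CTGF) differed by -0.38 (SE 0.24) and Creb3l1, a transcription factor of collagen secretion, by -0.33 (SE 0.15).

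Marker lists of the cells a muscle can hold were summed on each array, and their part in the collagen differences was not tested. No marker passed the threshold after adjustment, and 5.24% of all genes tested were lower and 4.39% higher at an unadjusted limma p under 0.05. Of 12 fibro-adipogenic progenitor and fibroblast markers 10 were lower, with a median of -0.28, 7 of them at that p, and 1, Gsn, was higher at that p, by 0.31 (SE 0.11). The sum of their intensities was 23540 to 26607 on the PBS arrays and 18314 to 21304 on the rIL-33 arrays, without overlap. Bright genes weigh most in such a sum, and the brightest is decorin (Dcn). Dcn, Dpt and Lum also stand in the list of collagen-binding partners, so the lists are not separate. Taken singly, 6 of the 11 markers tested, Dcn, Dpt and Lum among them, were lower without overlap, beside 2.13% of all genes. Dcn differed by -0.28 (SE 0.07) and Cd34 by -0.28 (SE 0.08), and Tcf21 was dim. Of 11 tendon markers 10 were lower, 2 at that p, by a median of -0.19, with sums of 10296 to 13067 with PBS and 8042 to 11713 with rIL-33. Thbs4 differed by -0.19 (SE 0.16) and Tnc by -0.67 (SE 0.35). Of 12 endothelial markers 9 were lower, 4 at that p, and Vwf was higher at that p, by 0.21. Their median was -0.10, with sums of 10942 to 11988 and 9638 to 10972. Cdh5 differed by -0.23 (SE 0.10) and Emcn by -0.32 (SE 0.08). Of 10 pericyte and smooth muscle markers 6 were lower and 4 higher, 1 of them (lower) at that p, with a median of -0.11 and sums of 22379 to 23764 and 21006 to 23006. Des, which muscle fibres also express, differed by 0.04 (SE 0.06) and Acta2 by -0.32 (SE 0.14).

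Of 12 macrophage markers 11 were lower, 5 at an unadjusted p under 0.05 (5.24% of all genes tested), and Cd163 was higher at that p, by 0.27. Their median was -0.25, with sums of 20619 to 24411 with PBS and 16084 to 21688 with rIL-33. Lyz2 differed by -0.25 (SE 0.11) and C1qb by -0.38 (SE 0.13). The 11 cell cycle genes with a value were all lower, 10 at that p, with a median of -0.40 and sums of 4862 to 6507 and 3440 to 5545. Ccnb2 differed by -0.56 (SE 0.15) and Ccna2 by -0.58 (SE 0.18). These genes were lowest in the arrays that were lowest in the bright collagen genes. Their centred mean was -0.34, 0.15, -0.50 and -0.11 in rIL-33 replicates 1 to 4. That order was not particular to cell cycle genes. The same arrays were lowest in macrophage markers (-0.31, 0.01, -0.26 and 0.08) and in fibroblast, tendon, endothelial and regenerating fibre markers. They were also lowest in the lists of collagen folding, receptors, matrix partners, basement membrane partners and degradation. They were not so in collagen gene regulators or in pericyte, Schwann cell, cartilage and bone, and mature fibre markers. The 9 markers of regenerating fibres were all lower, 0 at that p, by a median of -0.08, with sums of 35543 to 40434 and 28206 to 41594. Myl4 differed by -0.08 (SE 0.08) and Actc1 by -0.18 (SE 0.15). Of 12 mature fibre markers 1 was lower and 0 were so at that p, with a median of 0.06 and sums of 113019 to 124558 and 118365 to 130280. Atp2a1 differed by 0.06 (SE 0.06) and Acta1 by -0.02 (SE 0.07).

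Of 8 Schwann cell markers 5 were lower, 0 of them at an unadjusted p under 0.05, with a median of -0.03 and sums of 4511 to 4916 with PBS and 3927 to 4575 with rIL-33. Pmp22 differed by -0.22 (SE 0.10) and Cnp by -0.02 (SE 0.10). Of 8 cartilage and bone markers, 5 were dim (Acan, Cnmd, Matn3, Matn1 and Ibsp), 6 were lower and the median was -0.04. The sums of these 8 were 1377 to 1671 and 1471 to 1732, and Sox9 and Chad differed by -0.07 (SE 0.08) and 0.16 (SE 0.15).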

How the data were processed

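The deposited values are probe set intensities on a linear scale, deposited by the authors, whose processing notes name RMA and Affymetrix Power Tools. No version is stated in the sources used here. As a method, RMA subtracts background, gives arrays one distribution and combines probes. The log2 of each intensity was taken. Of 24922 probe sets, 21425 had exactly 1 gene symbol in the platform annotation, 1399 had several and 2098 were not listed, and the last 2 kinds were left out. Each gene is its one-symbol probe set of highest mean over 8 arrays, and genes under the 25th percentile of these means were left out as dim. Collagens of several symbols numbered 0, and 2 collagen genes had more than 1 probe set.

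The 4 rIL-33 arrays were set against the 4 PBS arrays in limma 3.58.1 (R 4.3.3; lmFit, then eBayes), two-sided and without a block, with Benjamini-Hochberg adjustment over all genes tested and a threshold of 0.05. The script was tested on simulated data. Arrays have no sequencing depth; 4 per treatment is what limits the precision. Arrays of the same replicate number did not deviate together in every pair (correlations of 0.44, -0.19, 0.43 and 0.54), so the numbers were not used as pairs.

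The collagen genes, their classes and the gene lists were chosen with earlier results of these data known. Values by array are given, per class, for the 4 genes of highest mean and the gene of largest difference. They are also given for genes past the threshold, of which there were none. In each list of collagen-related genes the 2 tested genes of largest difference are named, and in each marker list the 2 of highest mean. Genes named beyond this rule (Col5a1, Timp4, Gsn, Vwf, Cd163, Tcf21, Acan, Cnmd, Matn3, Matn1, Ibsp, the second probe sets and the values by array of Col6a5) were chosen after their values were seen. Lum, Dcn, Dpt, Fmod, Kera, Thbs4, Comp, Scx, Sox9 and Cspg4 stand in more than 1 list. The alternatives were other normalizations, filters and variance models, array weights, blocks, each label alone, averaging probe sets by gene, and leaving out each array. RefSeq protein sequences were not used here. Plots used matplotlib 3.10.9 (Python 3.11.15).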

Additional observations from a re-analysis of the deposited data

Results flagged for a closer look

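Col5a1 had 1 PBS array far from the others: PBS replicate 2 at 9.20, beside 9.46 to 9.48 on the other 3. Col18a1 likewise had PBS replicate 2 at 8.76, beside 8.93 to 8.95. In these 2 groups the gap over the range was above Dixon's 95% critical value for 4 samples. Of 88 groups of 4 arrays checked (44 genes in each treatment), 2 were so far apart, where about 1 in 20 groups, 4.4 of 88, would be by chance.

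The second probe set of Col6a5, which the comparison by gene did not use, was higher with rIL-33 by 0.94 on the log2 scale (limma adjusted p = 0.472 over all probe sets), on all 4 arrays, while the probe set used for the gene differed by 0.17.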

How the results depend on the processing

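No collagen gene passed the adjusted threshold under any alternative run. The median difference of the 44 genes stayed below 0 throughout, between -0.17 and -0.04 when any 1 array was left out. Over all genes 1 passed with limma and 0 with the replicate block, 2 in the C57BL/6-labelled arrays alone, 4 in the WT-labelled arrays alone and 1 to 2 with an array left out. The replicate numbers were not used as pairs (above), which does not show that the arrays are unpaired. With the replicate block 16 collagen genes were lower at an unadjusted p under 0.05. This count of 14 was 8 with array weights and 6 in the C57BL/6-labelled arrays alone, and 8 to 16 with an array left out. The count of 5 without overlap was 8 after cyclic loess normalization, 9 in the C57BL/6-labelled and 27 in the WT-labelled arrays (2 against 2, where 19% and 18.6% of all genes did so), and 5 to 11 with an array left out. The shares of all genes (5.24% and 2.13% in the main fit) also move with the setting, as given above for some left-out arrays. Counts given here without such a share cannot be read against all genes. The label arms and left-out arrays hold fewer samples, and for the other settings the cause was not tested.

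Genes close to 0 changed sign. Log2 differences that turned were Col24a1 0.011, Col4a4 0.0083, Col20a1 0.0085 with quantile normalization and Col24a1 0.0069, Col4a4 0.014, Col20a1 0.0081 with cyclic loess normalization. With array weights they were Col4a4 0.0042, Col6a4 0.0072, Col20a1 0.024, Col19a1 -0.027, Col26a1 0.00034. In the C57BL/6-labelled arrays alone they were Col11a2 0.069, Col24a1 0.028, Col4a4 0.045, Col9a3 0.00067, Col19a1 -0.037, Col25a1 0.055, Col8a2 0.0040, Col17a1 0.0053, and in the WT-labelled arrays alone Col4a6 -0.014. With an array left out, the ranges that crossed 0 were Col11a2 -0.14 to 0.037, Col24a1 -0.051 to 0.018, Col4a4 -0.057 to 0.039, Col4a6 -0.083 to 0.10, Col6a4 -0.082 to 0.027, Col9a3 -0.23 to 0.028, Col9a2 -0.15 to 0.017, Col20a1 -0.050 to 0.059, Col9a1 -0.12 to 0.071, Col19a1 -0.0084 to 0.051, Col26a1 -0.088 to 0.0033, Col7a1 -0.17 to 0.00087, Col13a1 -0.16 to 0.0030, Col25a1 -0.14 to 0.043, Col8a2 -0.14 to 0.00094, Col17a1 -0.21 to 0.035, Col10a1 -0.20 to 0.033, and 16 of these genes turned without PBS replicate 3. With the dim filter at the 50th percentile, 31 of the 44 genes were tested, so the others could not turn there. Neither the dim filter, the variance model, the label block nor the mean of probe sets turned a tested gene. None of these settings took the counts of 14 and 5 beyond 15 and 5. Dim probe sets stand near the background, which limits how far their differences can be read.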
